A study of Mus musculus with 4 samples.

Results

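The SOCS family is a set of 8 genes, Socs1 to Socs7 and Cish, taken by name from a table of 41324 genes, and all 8 were present. The table came from RAW264.7 cells, an established mouse macrophage-like line, treated with actinomycin D, a DNA-binding drug that stops RNA synthesis. What remains of an mRNA at later times then reports on its decay. The 4 groups were untreated cells and cells kept in 10 µg/ml actinomycin D for 2, 4 or 6 h, with 1 library in each. All 4 groups were the same line, and the labels give no genotype change, no cytokine and no other stimulus. The molecule is labelled as cytoplasmic RNA, ribosomal RNA was depleted before sequencing. Whether each time was a culture of its own is not stated, so the spread between cultures is unknown.

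SOCS proteins are inducible brakes on cytokine signalling. A receptor-bound JAK kinase phosphorylates a STAT factor, the STAT enters the nucleus and switches on genes that include Cish, Socs1, Socs2 and Socs3, and their proteins return to the receptor and shut it down. Each protein carries an SH2 domain, which binds phosphotyrosine, and a C-terminal SOCS box, which recruits Elongin B, Elongin C, Cul5 and Rnf7 into a ubiquitin ligase. SOCS1 and SOCS3 also have a short kinase-inhibitory region that blocks JAK directly. In macrophages SOCS1 is known for restraining interferon and Toll-like receptor responses and SOCS3 for restraining interleukin-6 signals through gp130, the product of Il6st.

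Sequences are shown for Cish and Socs3, the members with the lowest shares of the untreated level at 2 h. Both carry AU-rich letters in the 3' untranslated region (UTR), a class of element known to bring in mRNA decay factors, and both promoter windows hold the letters that STAT factors read. At least 1 ATTTA was present in 70.4% of the 3' UTRs of tested genes, and its part in decay was not tested here. Capitals mark the pentamer ATTTA or the nonamer TTATTTATT in the 3' UTR windows, written 5′ to 3′ in DNA letters from GENCODE transcripts of the mm10 build.
Cish 3' UTR, capitals at bases 851 to 863 of 2248: tacagtatTTATTTATTTATTctccttgc
Socs3 3' UTR, capitals within bases 1398 to 1408 of 1474: gcacatatATTTAtATTTAtactcaga
Socs3 3' UTR, capitals at bases 1434 to 1438 of 1474: tttcagtaATTTAtaataaaa
Capitals in the next pair mark TTCNNNGAA, the palindromic STAT motif, which reads the same on both strands. The windows come from RefSeq promoters of GRCm38.p6 and follow the gene's strand.
Cish, plus strand, chr9:107296654-107296683: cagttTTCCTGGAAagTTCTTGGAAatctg
Socs3, minus strand, chr11:117969502-117969530: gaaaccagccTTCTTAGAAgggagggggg

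Cish was the only member whose 3' UTR held the nonamer TTATTTATT, in 2 overlapping copies. Of 9604 annotated 3' UTRs of tested genes, 8.26% held it, and of 1433 with a length within 20% of that of Cish, 10.3% did. Socs1 stood at the other end, with 0 ATTTA pentamers in 1993 bases, where 9.12% of 1492 3' UTRs of like length had 0. Counts of ATTTA were 2 in Socs2, 3 in Cish, 4 in Socs3, 4 in Socs5, 5 in Socs7, 10 in Socs6 and 17 in Socs4. Of 3' UTRs of like length, 52.1% held at least as many as Socs2, 63.2% as Cish and 28.9% as Socs3. The shares were 55.9% for Socs5, 82.2% for Socs7 and 26.3% for Socs6. The nonamer holds the pentamer within it, so the counts overlap. The Socs4 3' UTR is long, at 5182 bases, and 8.87% of 496 3' UTRs of like length held at least as many.

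Promoter windows of 300 bases, from 250 before to 50 after the gene start, were matched for 4 of the 8 members (Cish, Socs1, Socs3 and Socs4). The Cish window held 2 STAT motifs, beginning at bases 1 and 12 counted from 1 at the gene start, and the Socs3 window held 1, beginning 154 bases before it. Windows of Socs1 and Socs4 held 0. Of 7798 tested genes with such a window 6.75% held the motif, and 0.372% held at least 2. RefSeq and GENCODE place the first base of Cish and of Socs3 differently, so these distances hold for the RefSeq starts. These letters are a description of the windows, and binding was not measured.

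Levels in untreated cells differed widely within the family. CPM here is a gene's count over the size of its library, with sizes set by the TMM method so that the typical gene stays level from library to library. Per kb of the coding transcript, Socs5 stood at 8.14 CPM (counting interval 7.68 to 8.63) and Socs7 at 7.89 (7.51 to 8.27). Socs4 followed at 5.64 (5.32 to 5.97), Socs3 at 4.20 (3.75 to 4.68) and Socs6 at 3.52 (3.25 to 3.80). Cish and Socs1 lay lower, at 1.53 (1.28 to 1.82) and 0.429 (0.304 to 0.589). All neighbours in this order except Socs5 with Socs7 and Socs3 with Socs6 had intervals that did not overlap. Over the union of all annotated exons the first 2 changed places, with 7.61 for Socs7 and 5.90 for Socs5, and Socs6 came to 1.87 and Cish to 0.655. All intervals are exact, at 95%, and cover counting error only.

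**Figure D1:**
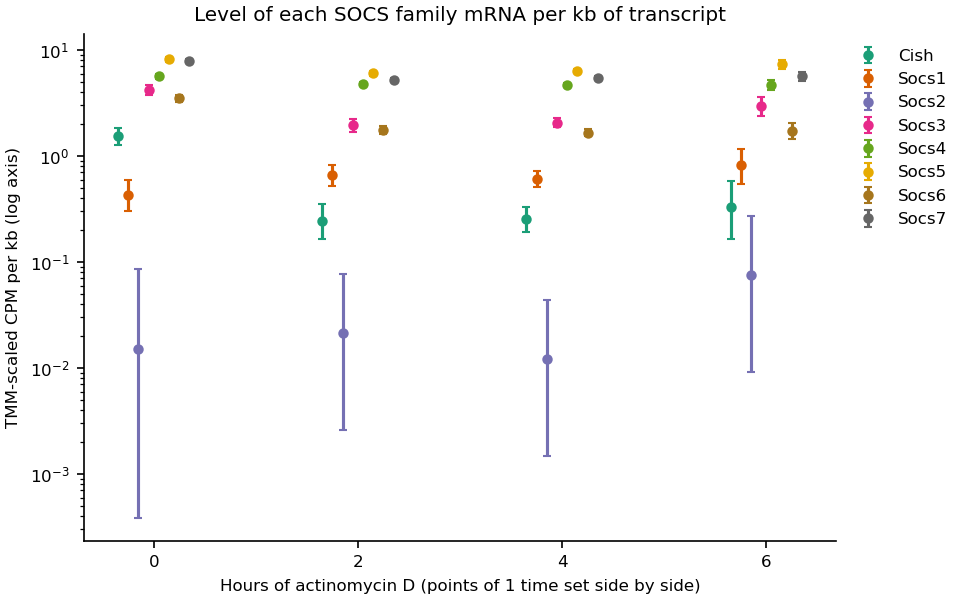
TMM-scaled CPM per kb of coding transcript (log axis) for the 8 genes at 0, 2, 4 and 6 h of actinomycin D; points are single libraries and bars 95% counting intervals. Socs5, Socs7 and Socs4 were the highest of the family at every time, and Socs2 rested on 1 or 2 counts in each library.

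After 2 h Cish stood at 15.9% of its untreated level, Socs3 and Socs6 at 46.4% and 49.9%, Socs7, Socs5 and Socs4 at 66.1%, 73.7% and 84.6%, and Socs1 at 154%, where the median of all tested genes was 101%. With TMM, for the 6 members below 100%, the value at 6 h lay level with or above that at 2 h within counting error. The course after 2 h moved with the scaling. With the authors' divisors Socs4 stood at 69.5% at 2 h and 58.0% at 6 h, and with total counts Socs6 stood at 66.1% and 55.4%. On a straight line over the 6 h, of 7 members tested with edgeR's quasi-likelihood test, 0 fell and 0 rose at an adjusted p under 0.05, where 16.8% of 10837 tested genes fell and 8.03% rose. At an unadjusted p under 0.05 there were 2, Cish and Socs6, both with negative slopes, where 46.9% of all tested genes passed in either direction. DESeq2 at an adjusted p under 0.05 also called 0, where 19.9% of all tested genes fell and 14.1% rose. The split over all genes, 1817 fallen and 870 risen, moved with the scaling: it was 1318 and 205 with total counts, 2554 and 132 with ribosomal protein genes, and 4963 and 72 with the authors' divisors. The median slope of all genes was 0.0014, 0.023, −0.057 and −0.086 log2 per h in that order, so every slope here is relative to the typical gene. With total counts 1 member fell (Cish), and with the authors' divisors 1 did (Socs4). The bend, which is the quadratic term of time and is positive where a course drops first and then flattens or returns, passed the test upward in 5 members (Cish, Socs3, Socs5, Socs6 and Socs7) and downward in 0, where 18.0% of tested genes bent upward and 10.6% downward. With total counts as the scaling 2 bent upward (Cish and Socs3), and with DESeq2 in place of edgeR 1 did (Socs3). Of all tested genes 6.16% and 9.03% bent upward in these fits. With ribosomal protein genes and with the authors' divisors 6 members bent upward, Socs4 among them, beside 31.0% and 28.9% of all tested genes. Cish passed the abundance filter, a mean of at least 1 CPM, through its untreated library alone, so its drop is not independent of that filter. In bulk RNA, fewer cells and less RNA per cell cannot be told apart. A value above 100% is likewise relative, and does not separate new RNA from slower decay than that of the typical gene.

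**Figure D2:**
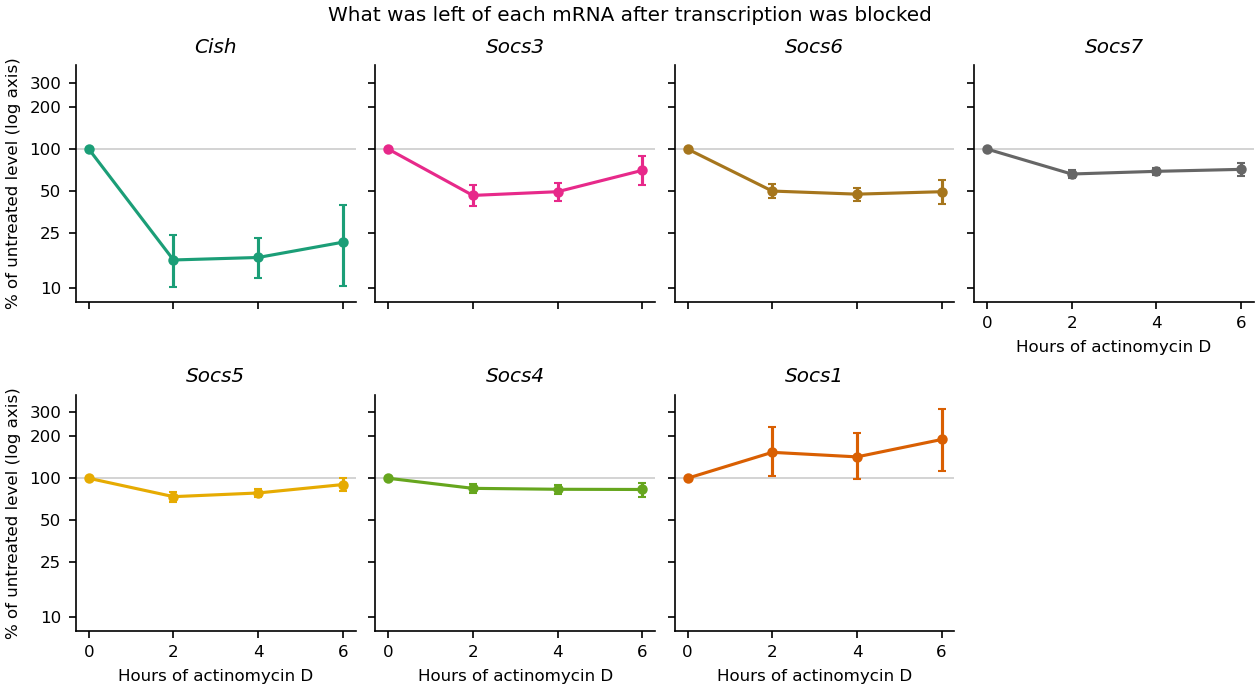
Percent of the untreated level (log axis) of 7 SOCS members against hours of actinomycin D, TMM-scaled; points are single libraries, bars 95% counting intervals, and the grey line is 100%. Cish stood at 15.9% by 2 h and Socs1 at 154%, with the other members between 46.4% and 84.6%.

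Cish, the STAT5-induced family member that gave the family its first name, had 128 counts in untreated cells, 29 at 2 h, 53 at 4 h and 11 at 6 h. Scaled, these were 4.20, 0.670, 0.698 and 0.899 CPM. The untreated library was high, and the 3 treated libraries lay close together with overlapping intervals. Relative to untreated, Cish stood at 15.9% at 2 h (counting interval 10.3 to 24.0%), 16.6% at 4 h (11.8 to 23.0%) and 21.4% at 6 h (10.4 to 39.6%). Of all tested genes, 0.424% had a lower change at 2 h. Cish passed the abundance filter through its untreated library alone, so this rank and its bend are not independent of that filter. Its bend was 0.196 ± 0.042 log2 per h squared (SE, edgeR adjusted p = 0.00849), and its slope −0.47 ± 0.17 log2 per h (adjusted p = 0.0984). Cish spans chr9:107296026-107302784, plus strand (GENCODE, mm10), and the annotation puts 2 other genes on the minus strand over it. Whether those 2 overlap its exons was not examined, and no source used here states how strand was counted. Whether their reads are among the Cish counts is therefore not known.

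Socs3, the STAT3-induced inhibitor of JAK and gp130, had 326, 215, 401 and 92 counts at 0, 2, 4 and 6 h, which scaled to 10.7, 4.97, 5.28 and 7.52 CPM. The lowest levels were at 2 and 4 h, and the 6 h library lay between these and the untreated one. Socs3 stood at 46.4% of untreated at 2 h (counting interval 38.9 to 55.3%), 49.3% at 4 h (42.5 to 57.3%) and 70.2% at 6 h (55.1 to 88.8%). With TMM its level at 6 h was 1.42-fold that at 4 h (1.12 to 1.79) relative to the typical gene, between single libraries and with no replicate check. The size of this difference depended on the scaling. Socs3 stood at 61.5%, 62.4% and 78.9% of untreated with total counts, and at 38.1%, 35.7% and 49.0% with the authors' divisors. The bend was 0.101 ± 0.018 (SE, edgeR adjusted p = 0.00334), with the smallest p of the family, and the slope was −0.086 ± 0.086 (adjusted p = 0.46). Without the untreated library the slope was 0.142 (edgeR adjusted p = 0.0936). Socs3 spans chr11:117966079-117970047, minus strand.

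Socs1, which blocks JAK kinases downstream of interferon receptors, had 38, 83, 135 and 29 counts, or 1.25, 1.92, 1.78 and 2.37 CPM. All 3 treated libraries were above the untreated one, and its interval (0.883 to 1.71) overlapped those at 2 h (1.53 to 2.38), 4 h (1.49 to 2.10) and 6 h (1.59 to 3.40). Socs1 stood at 154%, 142% and 190% of untreated at 2, 4 and 6 h, with counting intervals of 103 to 232%, 98.7 to 210% and 113 to 316%. Of tested genes, 97.6% had a lower change at 2 h. Neither test passed. The slope was 0.13 ± 0.057 log2 per h (edgeR, SE; adjusted p = 0.15) and the bend −0.012 ± 0.030 (adjusted p = 0.799). With the divisors behind the authors' normalized columns Socs1 stood at 126%, 103% and 133%, with intervals that all include 100%. Socs1 spans chr16:10782240-10785536, minus strand.

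Socs2, best known as the brake on growth hormone signalling through STAT5, had 1 count in untreated cells and 2 in each treated library. This was 0.0664 CPM on average, under the abundance filter, so it was not tested and no fold change is given. Socs2 spans chr10:95385362-95417180, minus strand. The growth hormone receptor gene Ghr had 0 counts in every library.

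Socs6, which has a long N-terminal region and is known to bind receptor tyrosine kinases such as Kit, had 646, 458, 763 and 128 counts, or 21.2, 10.6, 10.0 and 10.5 CPM. The untreated library stood alone, and the 3 treated ones had overlapping intervals. Socs6 stood at 49.9% (counting interval 44.1 to 56.3%), 47.4% (42.6 to 52.7%) and 49.3% (40.5 to 59.7%) of untreated. At 2 h it was not distinguishable from Socs3. With TMM its level at 6 h was 0.989-fold that at 2 h (0.807 to 1.21), where that of Socs3 was 1.51-fold (1.17 to 1.94). With total counts Socs6 stood at 66.1%, 59.9% and 55.4% of untreated. The annotation puts 3 processed pseudogenes over the span of Socs6. Whether they overlap its exons was not examined, so whether their reads are among its counts is not known. The bend was 0.068 ± 0.015 (SE, edgeR adjusted p = 0.00865) and the slope −0.17 ± 0.061 (adjusted p = 0.103).

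Socs7, the member linked to the adaptor Nck and to insulin receptor substrates, was the most counted, with 1684, 1583, 2902 and 483 counts, or 55.3, 36.6, 38.2 and 39.5 CPM. It stood at 66.1% of untreated at 2 h (counting interval 61.7 to 70.8%), 69.1% at 4 h (65.0 to 73.4%) and 71.4% at 6 h (64.4 to 79.0%). The untreated level lay above all 3 treated ones, which overlapped. Its bend was 0.041 ± 0.0095 (SE, edgeR adjusted p = 0.0124). Socs7 spans chr11:97362551-97398542, plus strand.

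Socs5 and Socs4 are close relatives, both linked to the epidermal growth factor receptor. Socs5 had 1152, 1208, 2252 and 417 counts, or 37.8, 27.9, 29.7 and 34.1 CPM, and stood at 73.7%, 78.4% and 90.1% of untreated (counting interval at 6 h 80.4 to 101%). It was lowest at 2 h, and by 6 h its interval overlapped that of the untreated library; the bend was 0.040 ± 0.0086 (SE, edgeR adjusted p = 0.00826). Socs4 had 1181, 1421, 2454 and 394 counts, or 38.8, 32.8, 32.3 and 32.2 CPM, and stood at 84.6%, 83.3% and 83.0% (interval at 6 h 73.9 to 93.1%). With TMM its treated libraries did not differ beyond counting error, and its bend of 0.015 ± 0.0077 did not pass (SE, edgeR adjusted p = 0.173). The bend passed with ribosomal protein genes and with the authors' divisors (edgeR adjusted p = 0.0126 and 0.0238). With those divisors Socs4 stood at 69.5%, 60.4% and 58.0%, and with total counts at 112%, 105% and 93.2%. Socs5 spans chr17:87107679-87137839 and Socs4 chr14:47276931-47296102, both plus strand.

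**Figure D3:**
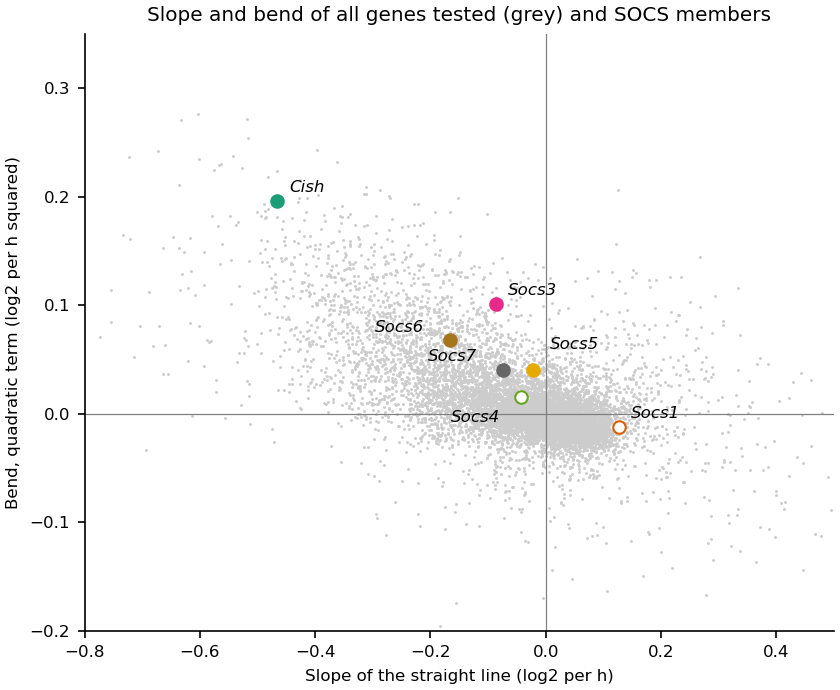
Slope of the straight line (log2 per h) against the bend (log2 per h squared) for 10837 tested genes (grey; 57 lie outside the axes) and 7 SOCS members; filled circles passed the bend test and open ones did not. Cish lies at the upper left with a slope of −0.47 and a bend of 0.196, and Socs1 alone lies at a slope above 0.

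The order of the members by what was left can be read without any scaling, since a ratio of 2 genes within a library does not change with it. At 2 h the order from lowest to highest was Cish, Socs3, Socs6, Socs7, Socs5, Socs4 and Socs1. For 5 of the 6 neighbouring pairs the exact conditional odds ratio of the 4 counts had a 95% interval that left out 1, and the remaining pair was Socs3 and Socs6 (Socs6 over Socs3 1.07, interval 0.867 to 1.33). Socs3 over Cish was 2.91 (1.85 to 4.68), and Socs1 over Socs4 1.81 (1.21 to 2.76). At 4 h 4 of 6 pairs were apart and at 6 h 3 of 6, where Socs3 had moved above Socs6 (1.42, 1.04 to 1.94) and was not distinguishable from Socs7 (Socs7 over Socs3 1.02, 0.786 to 1.32). Cish was the lowest and Socs1 the highest at all 3 times. These intervals cover counting error only and say nothing of the spread between cultures.

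The level of each member relative to untreated did depend on the scaling. At 2 h Cish stood between 13.1% (the authors' divisors) and 21.1% (total counts), and Socs3 between 38.1% and 61.5%. Socs6 ranged from 41.0% to 66.1%, and Socs7 from 54.3% to 87.6%. Socs5 stood between 60.6% and 97.8%, and Socs4 between 69.5% and 112%, so that for Socs4 the side of 100% turned. Socs1 lay between 126% and 204%, above 100% under each of the 5 scalings at 2 h. Its counting interval included 100% with the authors' divisors (85.0 to 190%) and with ribosomal protein genes (87.6 to 196%).

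**Figure D4:**
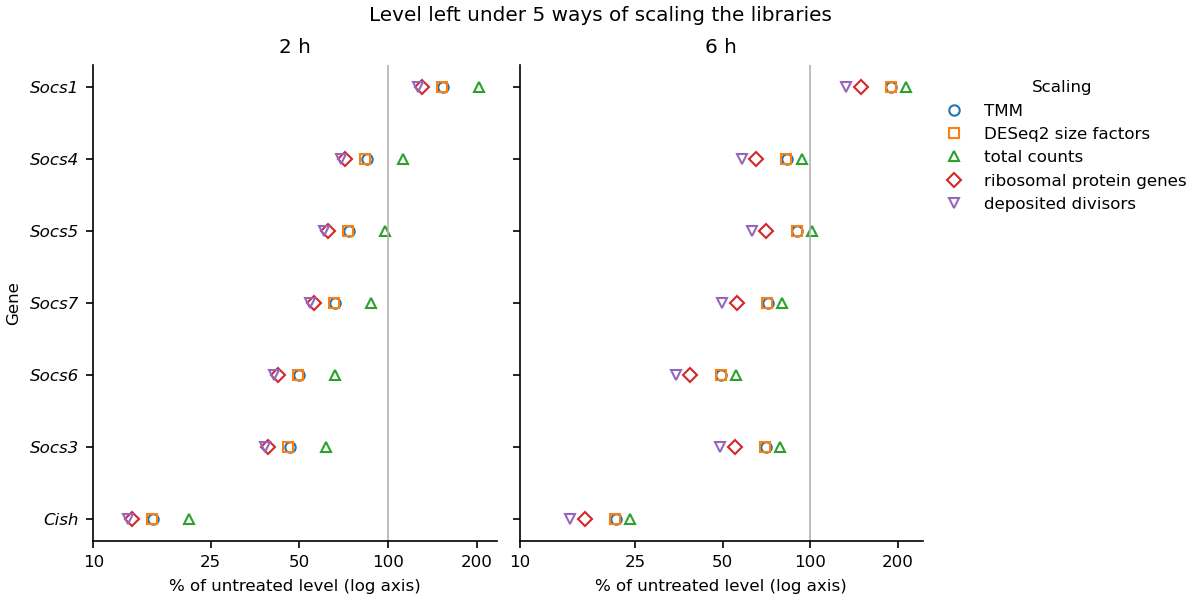
Percent of the untreated level (log axis) of 7 SOCS members at 2 h and 6 h under 5 scalings of the libraries (symbols). Total counts gave the highest values and the authors' divisors the lowest at both times, and Cish was lowest and Socs1 highest. Each scaling applies the same factor to all genes of a library, so these orders could not differ between genes or scalings.

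In the authors' deposited table the half-life of Cish was the shortest of the family, 1.11 h (R2 of the fit 0.912). Next in the authors' deposited table came Socs6 at 2.29 h (R2 0.947) and Socs3 at 2.29 h (R2 0.919). Socs7 had 3.47 h, Socs5 4.24 h and Socs4 5.05 h in the authors' deposited table, against a median of 6.38 h over 10836 tested genes with a value there. That median includes negative values, which rank below every positive one, so it is lower than a median of positive values alone. Socs1 carried a negative half-life, −23.5 h with R2 0.316, as did 988 of the tested genes in the authors' deposited table, and Socs2 7.36 h from 1 or 2 counts per library. Socs3 and Socs6 have the same value to 3 digits in the authors' deposited table, while at 6 h Socs3 over Socs6 was 1.42.

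Genes nearest to each member were found over the 3 changes from untreated, as a Euclidean distance in log2, among tested genes with a mean of at least 10 CPM. Nearest to Cish was Fbxo5 (distance 0.168), an inhibitor of the anaphase-promoting complex, at 15.6%, 18.4% and 23.4% of untreated, followed by the transcription factor Klf2 (0.247) and the mitochondrial carrier Slc25a25 (0.345). Nearest to Socs3 were Gsg2 (0.0953), the clock repressor Cry2 (0.106) and Zfp865 (0.114), and Cry2 stood at 49.8%, 49.0% and 69.2%. Nearest to Socs1 was the cold-inducible RNA-binding protein gene Cirbp (0.163), at 150%, 157% and 185%, then Pde1b (0.177) and Cenph (0.183). Socs6 lay nearest to Tbkbp1 (0.0721), Zbtb7b (0.0736) and Atg16l1 (0.0835). Socs7 lay nearest to Zfp131 (0.0516), Fut10 (0.0549) and Atf4 (0.0708), the stress-response factor. Nearest to Socs5 were Ddx58 (0.0693), which encodes the RNA sensor RIG-I, Fndc3b (0.0774) and Srxn1 (0.0777), and nearest to Socs4 were Dennd1a (0.0238), Haus6 (0.0282) and Slc1a4 (0.0295).

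STAT factors, which carry the cytokine signal to the nucleus, gave 0 falls, 0 rises and 0 bends among 6 tested. Of all tested genes 16.8% fell, 8.03% rose, 18.0% bent upward and 10.6% bent downward. The STAT list median was 96.2% at 2 h, 99.4% at 4 h and 99.7% at 6 h, beside medians of 101% over all tested genes at each time. At 6 h Stat2 stood at 78.8% (counting interval 65.4 to 94.5%), Stat5b at 87.0% (77.9 to 97.2%) and Stat6, the most abundant, at 104%. With the authors' divisors 5 of the 6 fell, where 45.8% of all tested genes did. The JAK kinases, which phosphorylate the STATs, had a list median of 103%, 118% and 128% at 2, 4 and 6 h. Of 4 tested 1, Jak2, rose (140% at 6 h, slope 0.083 ± 0.020, SE, edgeR adjusted p = 0.0473; −0.0043 with the authors' divisors). Jak3 stood at 133% and Jak1, the most abundant, at 122%; Jak1 bent downward, a call that was absent with ribosomal protein genes, with the authors' divisors and in DESeq2. Partners of the SOCS box had a list median of 110%, 118% and 117%. Of 8 tested 0 fell and 0 rose, and 3 (Eloc, Cul2 and Rbx1) bent downward, beside 10.6% of all tested genes. Cul2 and Rbx1 are not among the ligase subunits named above for the SOCS box. Of those that are (Elob, Eloc, Cul5 and Rnf7), Eloc alone bent downward. Over the 8 the downward count was 7 with total counts, where 44.1% of all tested genes bent downward. It was 0 with ribosomal protein genes, with the authors' divisors and in DESeq2, where 0.941%, 0.517% and 1.22% of all tested genes did. On the line 4 of the 8 fell with the authors' divisors, beside 45.8% of all tested genes. At 6 h Eloc stood at 146%, Rbx1 at 126%, Elob at 124% and Rnf7 at 120%, with counting intervals above 100%, and the most abundant, Cul5, at 98.5% (93.1 to 104%). The STAT list median at 2 h lay above the values of all tested members but Socs1.

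Of 17 tested cytokine receptors 4 fell and 2 rose, beside 16.8% and 8.03% of all tested genes, so the receptors' counts lie near the background. Those that fell were Ifngr1 (to 41.8% at 6 h, slope −0.21 ± 0.020, SE, edgeR adjusted p = 0.0157), Ifnar1 (59.9%), Il4ra (16.3%, at a mean of 1.91 CPM), and Il6st (63.4%). The 2 that rose were Csf2ra (177%) and Il2rg (139%; its slope turned to −0.010 with the authors' divisors), and Csf1r, the most abundant, stood at 113%. For comparison with Socs3, its target gp130 (Il6st) stood at 72.8%, 63.0% and 63.4%. The receptor Il10ra, at 34.0%, 30.2% and 31.7%, bent upward without passing the line test (edgeR adjusted p = 0.0756). With total counts 3 receptors fell and 0 rose, where 12.2% of all tested genes fell and 1.89% rose. With the authors' divisors 12 receptors fell and 0 rose, where 45.8% of all tested genes fell and 0.664% rose.

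Other brakes on JAK-STAT signalling gave 5 falls and 0 rises among 13 tested, where 16.8% of all tested genes fell. They were the phosphatases Ptpn1, Ptpn2 and Ptpn6 (66.7%, 60.6% and 70.6% of untreated at 6 h) and the STAT inhibitors Pias1 and Pias4 (26.8% and 26.1%; slopes −0.33 ± 0.051 and −0.34 ± 0.044, SE, edgeR adjusted p = 0.025 and 0.0205). With total counts 2 of the 5 passed, Pias1 and Pias4, and the phosphatases did not (edgeR adjusted p = 0.584, 0.393 and 0.656 for Ptpn1, Ptpn2 and Ptpn6). With the authors' divisors 10 of the 13 fell, where 45.8% of all tested genes did. Pias4 stood at 52.9%, 30.5% and 26.1%, where Socs6, at 49.9% by 2 h, did not go lower than 47.4%. Of 13 tested adaptors of other SOCS-box families 5 fell (Asb6, Asb7, Asb8, Spsb3 and Wsb1) and 1, Wsb2, rose, beside 16.8% and 8.03% of all tested genes. The slope of Wsb2 turned to −0.012 with the authors' divisors. Asb8 had the smallest p among the 13 (22.8% at 6 h, slope −0.36 ± 0.028, SE, edgeR adjusted p = 0.0148). Falls numbered 6 with total counts and 7 with the authors' divisors, where 12.2% and 45.8% of all tested genes fell. Upward bends numbered 4 (Asb6, Rab40c, Spsb2 and Wsb1), beside 18.0% of all tested genes. The list median was 64.3% at 2 h and 46.2% at 6 h.

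Genes known as STAT targets had the lowest list median, 33.6% at 2 h, 30.7% at 4 h and 38.4% at 6 h. Of 16 tested, 13 bent upward, where 18.0% of all tested genes did. The count lay between 12 and 14 under the other scalings and in DESeq2, where the share of all tested genes ran from 6.16% to 31.0%. On the line 3 fell (Irf9, Bcl6 and Cebpb) and 1, Ccnd2, rose, near the shares of all tested genes (16.8% and 8.03%). The falls numbered 10 with total counts and 0 with ribosomal protein genes, where 12.2% and 23.6% of all tested genes fell. Bcl6 stood at 23.0%, 12.8% and 13.6%, the kinase gene Pim1 at 27.4%, 27.7% and 36.8%, and the survival factor Mcl1 at 34.6%, 27.5% and 32.7%. Cish lay below all 16 at 2 h except Fos (15.1%), Socs3 lay above 10 of them, and Socs1 above all. The 3 that did not bend upward were the cyclins Ccnd1 and Ccnd2 and the kinase gene Pim2, at 99.7%, 103% and 91.5%. The list also holds immediate-early genes, and it was chosen with results of these data known. Of the line calls over all lists, 22 genes, 1 (Asb8) still passed without the 4 h library. In that fit 2.15% of all tested genes fell and 0.111% rose, in place of 16.8% and 8.03%, so the loss ran over the whole table. When the untreated or the 2 h library was left out 18 of the 22 still passed, and 16 did without the 6 h library. The 5 rises (Csf2ra, Il2rg, Jak2, Wsb2 and Ccnd2) all lost their call with total counts, with ribosomal protein genes and with the authors' divisors. Falls were lost too: Ifnar1, Il6st, Ptpn1, Ptpn2, Ptpn6 and Wsb1 with total counts, and Bcl6, Cebpb, Il6st and Irf9 with ribosomal protein genes.

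**Figure D5:**
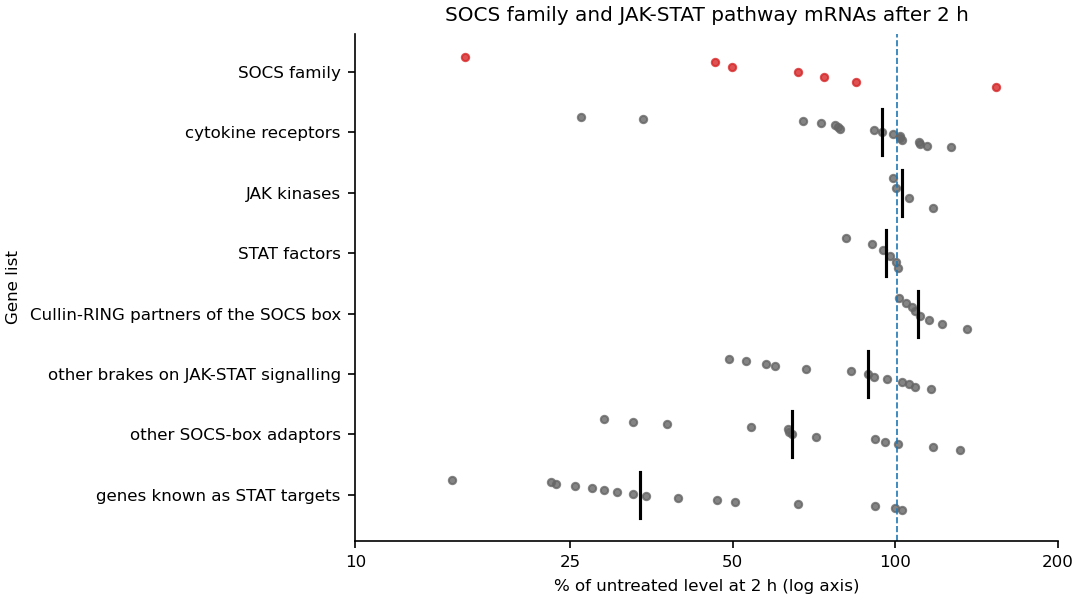
Percent of the untreated level at 2 h (log axis) for 7 SOCS members (red) and 7 lists of pathway genes (grey points; black bars are list medians, the dashed line the median of all tested genes, 101%). The list medians are 96.2% for STAT factors, 110% for SOCS-box partners and 33.6% for STAT targets.

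The cells carried the markers of their label: 8 of 9 macrophage markers had a mean of at least 1 CPM, with Mertk at 0.0202 the exception, and their summed level ran from 3382 to 5034 CPM. Of 19 markers of other cell types 0 reached 1 CPM, 11 were at 0 in every library, and their sum lay between 0.561 and 1.12 CPM. Library totals were 35669434, 38260540, 70289647 and 12762100 counts at 0, 2, 4 and 6 h, so the 6 h values have the widest intervals. With 1 library per time, p-values rested on the scatter of these 4 libraries around a line or curve, with 2 and 1 residual degrees of freedom per gene. Because these are so few, the fits also drew the expected scatter of each gene from that of all tested genes. The p-values do not measure the spread between cultures. Without the 2 h library Cish and Socs6 passed the line test as falls (edgeR adjusted p = 0.0266 and 0.0464), where 18.1% of all tested genes fell in that fit. Without the 4 h library the falls over all genes numbered 233 and the rises 12, in place of 1817 and 870.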

How the data were processed

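One library per time was analysed from 1 deposited table. The deposited counts for each gene were used unchanged; STAR 2.5.3a, featureCounts and Subread 1.6.3 on mm10 are named in the submitters' processing notes, while the sources used here give no annotation release, strand setting or multi-mapping rule. The authors' normalized signal was each library's count divided by 1 whole number (1300, 2250, 4476 and 748). The authors' half-life score and its R2, a fraction, were copied; how they were fitted is not given.

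Slopes and bends were fitted across all 10837 genes with a mean CPM of at least 1 by edgeR 4.0.16 (R 4.3.3) with TMM and Benjamini-Hochberg adjustment, called under 0.05. DESeq2 1.42.0 was an alternative. Ribosomal protein scaling used 81 genes. The fits were tested on simulated data. Percentages of untreated carry exact binomial intervals on the counts, levels exact Poisson ones (95%).

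3' UTRs are the longest among basic coding transcripts of GENCODE M21. Columns not matched to a sample numbered 0. Named genes were all members, from each list the most abundant, the steepest fall and rise with a mean CPM of at least 5 and those past a test, and the 3 nearest genes to each member. Not every gene this takes is printed, and Stat2, Stat5b, Jak3, Elob, Rnf7, Pim2 and Ghr were named after their values were seen. The members and the lists were chosen with earlier results of these data known.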

Additional observations from a re-analysis of the deposited data

How the results depend on the processing

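Total counts are each library's raw sum; with them 1 SOCS member fell (Cish) and 2 bent upward, and over all genes 205 rose, 668 bent upward and 4776 downward (1817 fell, 870 rose, 1947 bent upward and 1154 downward with TMM). The authors' divisors gave 1 member that fell (Socs4, edgeR adjusted p = 0.0364), and over all genes 4963 that fell, 72 that rose, 3127 bent upward and 56 downward. Ribosomal protein scaling gave 132 that rose, 3356 bent upward and 102 downward. The DESeq2 test gave 1 member bent upward, and over all genes 1524 that rose, 979 bent upward and 132 downward. With no filter 1801 genes bent downward. Leaving out each library in turn, members that fell numbered 0 to 2, genes that fell 233 to 2248 and genes that rose 12 to 1120.

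Signs turned for these slopes (log2 per h) without the untreated library: Cish (−0.67 to 0.089 over the left-out libraries), Socs3 (−0.25 to 0.14), Socs5 (−0.087 to 0.071) and Socs7 (−0.13 to 0.028), and without that library none of these 4 passed the edgeR test. With total counts the slope of Socs5 was 0.0035 and the bend of Socs4 −0.022. The bend of Socs1 was 0.0018 with ribosomal protein scaling and 0.0025 with the authors' divisors, under which slopes of Wsb2, Jak2 and Il2rg were −0.012, −0.0043 and −0.010. The bend test could not be fitted with 3 libraries. Of 363 slopes and bends of named genes under the alternatives, 278 kept their sign and side of the threshold, 71 lost a call (3 of them with a change of sign), 6 gained one, and 11 changed sign in all. Of 84 percentages under another scaling, 42 left their counting interval. The cause of these changes was not tested. Depth limits Cish, Socs1 and Socs2 most.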
